A study of Homo sapiens with 8 samples.

Results

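NCI-H1975 cells given osimertinib and alpelisib together were set against the same cells given vehicle, to ask what inhibition of both EGFR and PI3K does to the transcriptome. The arrays were chosen by their treatment labels, and the comparison used 4 of the 8 arrays of the series. NCI-H1975 is an established line grown from a human lung adenocarcinoma with an activated EGFR. The combination group held 1 array of cells given 10 nM osimertinib and 1 µM alpelisib, and 1 array of cells that received 2 mM L-histidinol as well. The vehicle group held 1 array of cells given DMSO alone, and 1 array of cells given 2 mM L-histidinol and neither drug. The labels name DMSO for the first of these only. The other 4 arrays came from cells given 10 nM osimertinib alone or 1 µM alpelisib alone, each without and with L-histidinol, and served to set the combination against each single drug. Every treatment lasted 24 hours, and every array came from the same line. L-histidinol, a histidine analogue that occupies the histidyl-tRNA synthetase, mimics a shortage of histidine. Each of the 8 conditions had 1 array, so an array with and an array without L-histidinol stood as the 2 pairs of the comparison.

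Osimertinib blocks mutant EGFR by binding it covalently, and alpelisib is an inhibitor selective for the alpha form of the lipid kinase PI3K. EGFR signals mainly along the RAS, RAF and ERK route, which switches on growth genes together with its own feedback inhibitors, and along the PI3K and AKT route, which keeps the FOXO transcription factors out of the nucleus and drives protein synthesis through mTORC1. In EGFR-mutant lung tumours both routes feed cell growth, and loss of their signal is known to stop the cell cycle and to release FOXO target genes.

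Expression was read as probe set intensities on a human 3′ expression array, and all levels below are log2 intensities, with the array without L-histidinol given before the array with it. The median intensity of an array lay between 21.8 and 22.4 over the 8 arrays. RNA integrity was read from the ACTB controls, whose 3′ over 5′ intensity ratio was 1.04 and 1.10 in cells given both drugs, against 1.07 and 1.11 in vehicle cells. The line's epithelial origin was visible on all 4 arrays: the adhesion molecule EPCAM lay at 12.15 and 12.17 in cells given both drugs, against 12.12 and 12.22 in vehicle cells, and the lung lineage factor NKX2-1 lay at 9.64 and 9.16 in cells given both drugs, against 8.01 and 6.997 in vehicle cells. Of 13 markers of fibroblasts, blood and endothelium, 4 were called higher and 0 lower, and their summed intensity was 1585 and 1185 in cells given both drugs, against 679 and 584 in vehicle cells. Without the collagen genes COL1A1 and COL1A2 the sum was 274 and 252 in cells given both drugs, against 243 and 247 in vehicle cells, and the leukocyte gene PTPRC lay near the floor of the arrays at 2.71 and 2.83 in cells given both drugs, against 2.88 and 2.81 in vehicle cells. The part of these markers in the results was not tested. In bulk RNA, fewer cells of a kind and less RNA per cell cannot be told apart, and a level is relative to the rest of the array.

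The combination changed the level of a large share of the transcriptome. Of 19775 genes tested, 4233 were higher (21.4%) and 3800 lower (19.2%) in cells given both drugs than in vehicle cells, at an adjusted p below 0.05 in limma's moderated test. The change was at least 2-fold for 746 of the higher and 694 of the lower genes, and at least 4-fold for 102 and 59 of them. Nearly all of the called genes, 8032 of 8033, moved the same way in the pair without and in the pair with L-histidinol. Each call rests on the mean of these same 2 pairs. Agreement of their signs is therefore largely built in and does not replicate the result. Differences are fitted log2 differences, combination minus vehicle, with their standard error. The p-values measure only the departure of these single arrays from additive drug and L-histidinol effects, nothing in the labels says that they came from separate cultures, and precision is limited by the number of arrays. Without a term for L-histidinol in the model, 5269 genes were called.

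The largest rise was that of GBP2, an interferon-inducible guanylate-binding protein, which lay at 8.84 and 8.71 in cells given both drugs, against 5.22 and 4.71 in vehicle cells. The difference was 3.81 ± 0.12 (adjusted p = 9.1e-09). Of the other 11 genes with the largest rises, TP53INP1, a stress protein with roles in p53 signalling and autophagy, lay at 7.92 and 7.71 in cells given both drugs, against 4.18 and 4.30 in vehicle cells (3.58 ± 0.12, adjusted p = 9.1e-09). The water and glycerol channel AQP3 lay at 9.80 and 9.35 in cells given both drugs, against 6.93 and 5.34 in vehicle cells (3.43 ± 0.19, adjusted p = 1.4e-07). In all 3 genes both arrays of cells given both drugs lay above both vehicle arrays. How often this holds over all genes was not counted. The genes named here and below were mostly picked for large differences, so such separation was largely built in and adds no support. CCN5, a secreted matricellular protein, was already bright in vehicle cells at 9.10 and 9.07 and reached 12.42 and 12.21 in cells given both drugs, a difference of 3.23 ± 0.065. The autophagy gene ATG9B differed by 3.19 ± 0.14, the secreted glycoprotein CHI3L1 by 3.15 ± 0.10, the transcription cofactor LBH by 3.08 ± 0.10, the chloride channel family protein CLIC3 by 3.76 ± 0.13 and the transmembrane protein TMEM255A by 3.37 ± 0.15. PSG3, a pregnancy-specific glycoprotein, differed by 3.26 ± 0.14, with a probe set that may cross-hybridize to related family members. TMT1A differed by 3.65 ± 0.19, and on its plain but dimmer probe set by -0.025 (adjusted p = 0.92).

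The largest fall was that of FOSL1, an AP-1 subunit induced by ERK, at 7.02 and 6.59 in cells given both drugs, against 10.64 and 10.26 in vehicle cells (-3.65 ± 0.085, adjusted p = 7.7e-10). DUSP6, the phosphatase that inactivates ERK, lay at 4.31 and 4.62 in cells given both drugs, against 7.47 and 8.50 in vehicle cells (-3.52 ± 0.18, adjusted p = 1.1e-07). The replication initiation factor MCM10 lay at 4.61 and 4.58 in cells given both drugs, against 8.26 and 7.85 in vehicle cells (-3.46 ± 0.19, adjusted p = 1.5e-07). The combination arrays lay below both vehicle arrays for each of them. DTL, which targets licensing proteins for destruction, differed by -3.11 ± 0.20, the exonuclease EXO1 by -3.01 ± 0.21 and the MYC and E2F target CDCA7 by -2.77 ± 0.11. Among the remaining largest falls, the peroxisomal oxidase ACOX2 differed by -2.72 ± 0.16, the zinc finger gene ZNF367 by -2.67 ± 0.21 and the long noncoding RNA LINC00973 by -2.64 ± 0.11. DSCC1, a subunit of an alternative clamp loader, differed by -2.66 ± 0.18, and by 0.075 (adjusted p = 0.74) on its plain, dimmer probe set.

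**Figure D1:**
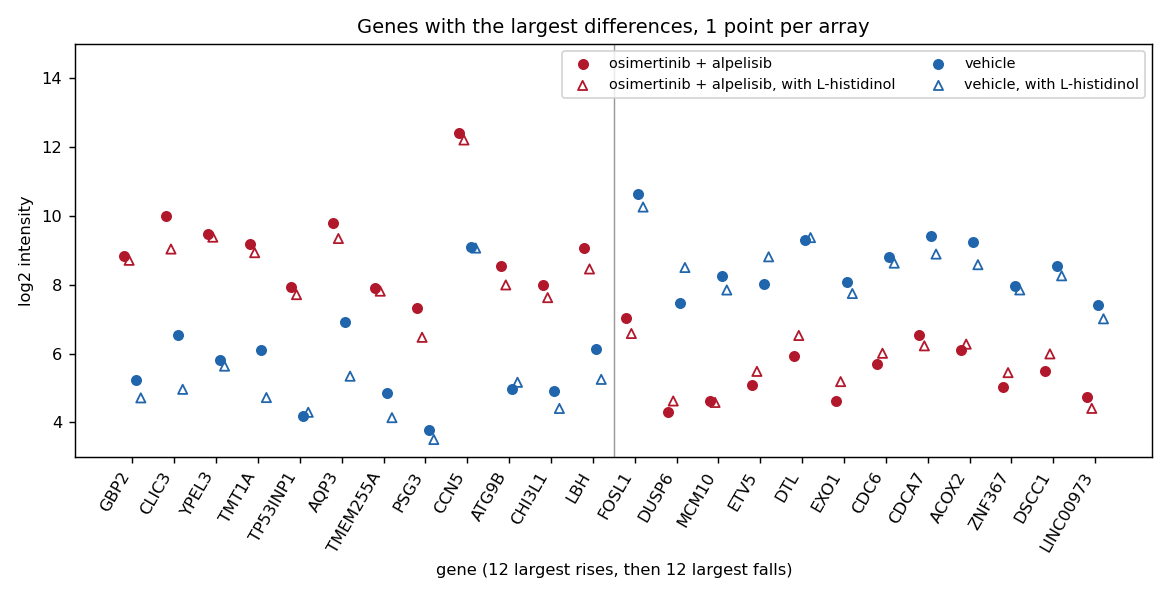
Levels of the 12 genes with the largest rises and the 12 with the largest falls, as log2 intensity on the y axis, with 1 point per array. Red points (cells given both drugs) and blue points (vehicle) do not overlap for any of these genes, which were picked for their large differences on these same arrays.

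Most output genes of the ERK pathway fell in cells given both drugs. Of 18 measured members of the list, 14 were lower and 0 higher, with a median difference of -1.16. The median over all genes was -0.001, and 19.2% of all genes were called lower. The members of this and every other list were chosen with earlier results of these data known, so no list count is independent support. List counts against vehicle below stand beside 21.4% of all genes called higher and 19.2% lower. ETV5, an ETS factor induced by ERK, lay at 5.10 and 5.48 in cells given both drugs, against 8.01 and 8.81 in vehicle cells (-3.12 ± 0.17, adjusted p = 1.6e-07). ETV4, from the same family, lay at 4.38 and 4.44 in cells given both drugs, against 6.67 and 6.91 in vehicle cells (-2.38 ± 0.11, adjusted p = 3.7e-08). Cyclin D1, CCND1, which carries the mitogenic signal to the cell cycle, lay at 7.52 and 6.93 in cells given both drugs, against 9.53 and 9.74 in vehicle cells (-2.41 ± 0.17, adjusted p = 8.1e-07). For each of these the combination arrays lay below both vehicle arrays. The 4 members that were not called were FOS, SPRY1, SPRY2 and SPRED3, named here after their values were seen, with differences of -0.28, -0.28, -0.18 and -0.15. Of the members, 11 had 21 promoters in the RefSeq table, each of 250 bases before and 50 after a start. The ETS motif CCGGAAG, searched on both strands, stood in 1 of the 21, against 10.3% of all 35116 promoters, and the AP-1 motif TGAGTCA in 2 of the 21, against 4.95% of all promoters.

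Receptors, ligands and adaptors upstream of both routes moved in opposite directions. Of 17 receptor tyrosine kinases 6 were higher and 5 lower (3 lower without the L-histidinol term), and the median difference was -0.0037. Over all genes 21.4% were called higher and 19.2% lower. ERBB3, a kinase-impaired partner of EGFR that binds PI3K directly, lay at 10.45 and 10.19 in cells given both drugs, against 8.40 and 8.35 in vehicle cells (1.94 ± 0.072, adjusted p = 1.4e-08). The insulin receptor, INSR, lay at 7.65 and 7.88 in cells given both drugs, against 6.57 and 6.63 in vehicle cells (1.16 ± 0.086, adjusted p = 9.3e-07), and ERBB2, the preferred partner of ERBB3, differed by 1.17 ± 0.069. These 3 receptors were higher on both combination arrays than on either vehicle array. FGFR3 rose by 1.56 ± 0.15. The ephrin receptor EPHA2 fell by 1.31 on the log2 scale, and EGFR itself lay at 8.42 and 8.80 in cells given both drugs, against 8.96 and 9.35 in vehicle cells (-0.54 ± 0.065, adjusted p = 3.4e-05). The EGFR value was not called without the L-histidinol term (adjusted p = 0.096).

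Among 8 ligands of the EGF family, 2 were higher and 3 lower, beside 21.4% of all genes called higher and 19.2% lower. With so few members the count higher lies near the share of all genes. TGFA, a ligand of EGFR, lay at 6.19 and 6.004 in cells given both drugs, against 7.71 and 7.57 in vehicle cells (-1.54 ± 0.09, adjusted p = 2.0e-07), and EREG, another EGFR ligand, differed by -0.79 ± 0.13. HBEGF, which binds EGFR and ERBB4, differed by 0.93 ± 0.18 (0.27 with the mean of its probe sets, adjusted p = 0.097), and EGF by 0.63 ± 0.15. EGF was dim on all 4 arrays, at 4.62 and 4.07 in cells given both drugs, against 3.85 and 3.59 in vehicle cells, and was not called without the combination array that lacked L-histidinol (0.42, adjusted p = 0.083). NRG1, the ligand of ERBB3 and ERBB4, differed by -1.63 ± 0.10, and by -0.27 (adjusted p = 0.21) on a plain, dimmer probe set.

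Of 16 PI3K pathway adaptors and brakes, 7 were higher and 3 lower, beside 21.4% of all genes called higher and 19.2% lower. The count lower lies near the share of all genes. IRS2, the adaptor that couples insulin and IGF receptors to PI3K, lay at 9.38 and 9.90 in cells given both drugs, against 7.41 and 8.39 in vehicle cells (1.74 ± 0.12, adjusted p = 5.8e-07). PIK3IP1, a transmembrane inhibitor of PI3K, lay at 7.67 and 7.27 in cells given both drugs, against 6.09 and 5.92 in vehicle cells (1.47 ± 0.12, adjusted p = 1.5e-06). Sestrin 3, SESN3, a brake on mTORC1 and a FOXO target, differed by 1.31 ± 0.14, and the mTOR inhibitor DEPTOR by 0.92 ± 0.11. DDIT4, which restrains mTORC1 under stress, went the other way at 8.70 and 10.01 in cells given both drugs, against 9.56 and 11.21 in vehicle cells (-1.03 ± 0.09, adjusted p = 3.1e-06). Within each pair DDIT4 was lower with both drugs, but across the pairs its levels overlapped, since the array with L-histidinol was the higher of the pair in either treatment, and without the L-histidinol term it was not called (adjusted p = 0.41).

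The FOXO target genes listed rose nearly without exception. Of 19 measured members 18 were higher and 0 lower, with a median difference of 1.33, beside the 21.4% of all genes called higher. As the list was chosen with earlier results of these data known, its count is not independent support. YPEL3, a growth-suppressive gene of the yippee family, lay at 9.48 and 9.39 in cells given both drugs, against 5.83 and 5.64 in vehicle cells (3.70 ± 0.082, adjusted p = 6.5e-10), which is 13-fold. KLHL24, a substrate adaptor of a ubiquitin ligase, lay at 8.91 and 9.14 in cells given both drugs, against 5.68 and 6.90 in vehicle cells (2.73 ± 0.17, adjusted p = 3.6e-07). The death ligand TNFSF10, known as TRAIL, lay at 5.44 and 5.30 in cells given both drugs, against 2.74 and 2.78 in vehicle cells. The vehicle level of TNFSF10 was as low as that of PTPRC and was not shown to be above background, so its fitted difference of 2.61 ± 0.14 (adjusted p = 1.2e-07) is not an exact size. The combination arrays exceeded both vehicle arrays in all 3. PDK4, which holds pyruvate back from the mitochondrion, differed by 2.37 ± 0.27 and YPEL2 by 2.72 ± 0.16. CDKN1B, the cyclin-dependent kinase inhibitor p27, lay at 9.21 and 9.33 in cells given both drugs, against 8.37 and 8.55 in vehicle cells (0.81 ± 0.068, adjusted p = 2.4e-06). SOD2, the mitochondrial superoxide dismutase, was the member that was not called (0.40 ± 0.19, adjusted p = 0.13).

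The forkhead motif GTAAACA, searched on both strands, stood in 3 of the 24 RefSeq promoters of 16 members, those of BCL2L11, TXNIP and YPEL3, against 3.42% of all promoters. The YPEL3 promoter of GRCh38.p14 at chr16:30096164-30096463 (minus strand) is shown as the motif-bearing promoter of the member that rose most, read 5′ to 3′ along the gene, with the motif in capitals. A match here describes letters in a window and not a bound site.
YPEL3: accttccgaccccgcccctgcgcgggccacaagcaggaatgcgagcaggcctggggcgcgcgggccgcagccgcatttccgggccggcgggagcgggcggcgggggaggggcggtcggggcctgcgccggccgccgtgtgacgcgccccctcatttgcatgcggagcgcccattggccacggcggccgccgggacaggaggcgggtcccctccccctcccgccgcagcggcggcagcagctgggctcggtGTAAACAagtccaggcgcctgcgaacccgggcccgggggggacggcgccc

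**Figure D2:**
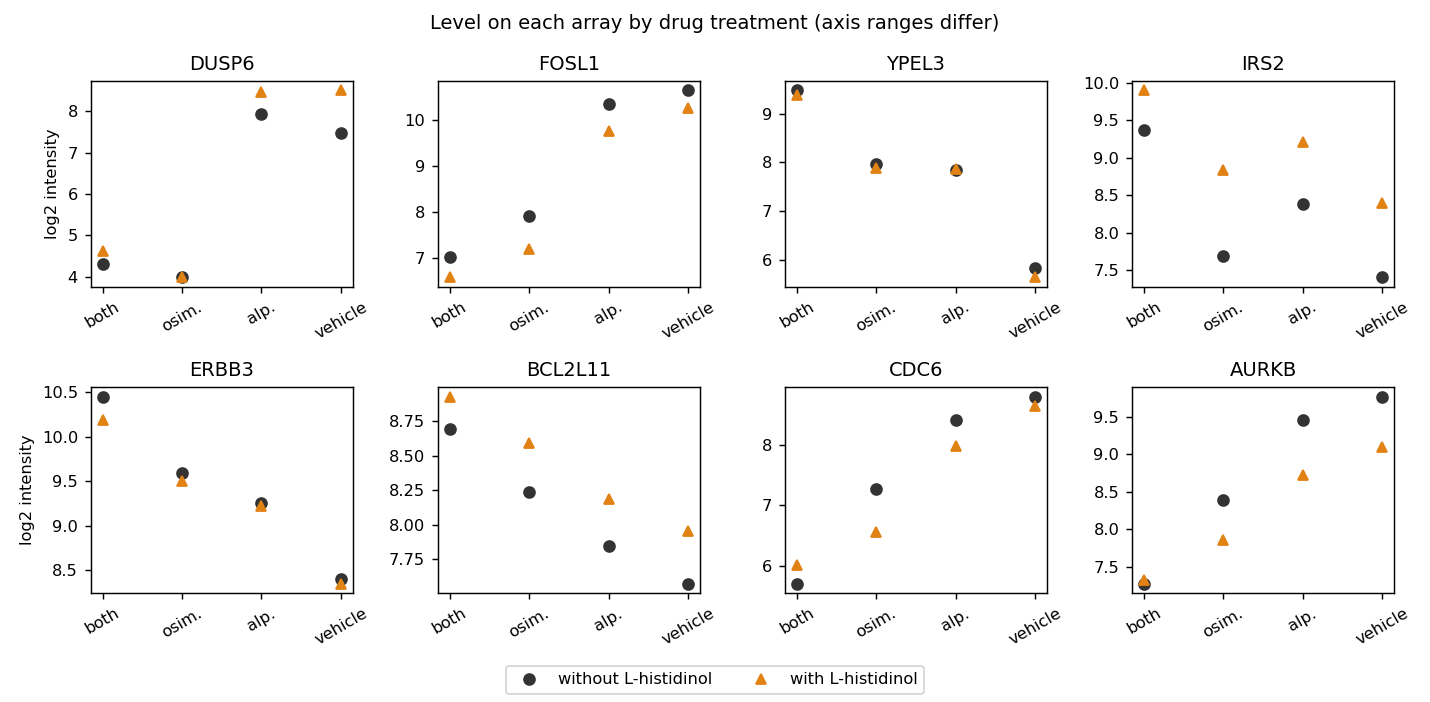
Levels of 8 genes as log2 intensity on the y axis, with the drug treatment on the x axis and separate symbols for the array without and the array with L-histidinol. DUSP6 and FOSL1 were low with osimertinib alone and with both drugs, whereas YPEL3, ERBB3 and BCL2L11 were highest and CDC6 and AURKB lowest with both drugs. For BCL2L11 (0.40) and AURKB (-0.82) the call against osimertinib alone was fragile. Neither call survived the loss of 1 osimertinib array, whichever it was. Averaging each gene's probe sets removed both calls too (0.16, limma adjusted p = 0.20, and -0.66, adjusted p = 0.062).

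Genes of DNA replication were lower without exception among those measured. All 24 were called lower, with a median difference of -1.98. CDC6, which loads the replicative helicase at origins, lay at 5.71 and 6.01 in cells given both drugs, against 8.80 and 8.63 in vehicle cells (-2.85 ± 0.18, adjusted p = 3.0e-07). CDC45, a component of the active helicase, lay at 6.05 and 6.41 in cells given both drugs, against 8.82 and 8.53 in vehicle cells (-2.44 ± 0.17, adjusted p = 6.2e-07). GINS2, also of the active helicase, differed by -2.38 ± 0.19 on its bright probe set and by 0.066 (adjusted p = 0.74) on a plain, dimmer one. The smallest fall was that of RPA2, a subunit of the single-strand binding complex, at -0.66 ± 0.086. The 17 genes of nucleotide synthesis were also all lower, with a median of -1.25. RRM2, the regulated subunit of ribonucleotide reductase, lay at 9.08 and 9.06 in cells given both drugs, against 12.004 and 11.20 in vehicle cells (-2.53 ± 0.16, adjusted p = 3.6e-07). Thymidylate synthase, TYMS, lay at 8.51 and 8.20 in cells given both drugs, against 11.02 and 9.85 in vehicle cells (-2.08 ± 0.17, adjusted p = 1.7e-06), and CTP synthase, CTPS1, differed by -1.94 ± 0.13. In each case the vehicle arrays lay above both combination arrays.

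All 24 mitosis genes were lower, with a median of -1.5. The chromosomal passenger kinase AURKB lay at 7.28 and 7.33 in cells given both drugs, against 9.77 and 9.09 in vehicle cells (-2.13 ± 0.15, adjusted p = 6.6e-07). MAD2L1, a spindle checkpoint protein, lay at 7.74 and 8.15 in cells given both drugs, against 9.96 and 10.04 in vehicle cells (-2.06 ± 0.12, adjusted p = 1.8e-07). Cyclin A2, CCNA2, differed by -1.84 ± 0.15, the midzone kinesin KIF23 by -1.83 ± 0.16 and the mitotic kinase PLK1 by -1.81 ± 0.16. The proliferation marker MKI67 lay at 7.51 and 7.72 in cells given both drugs, against 9.51 and 8.86 in vehicle cells (-1.57 ± 0.16, adjusted p = 1.0e-05). Every one of these genes was lower on both combination arrays than on both vehicle arrays.

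Among 15 G1 cyclins and regulators of E2F, the transcription factor family that drives entry into S phase, 14 were lower and 0 higher (median -1.31). The phosphatase CDC25A differed by -2.54 ± 0.11, cyclin E2, CCNE2, by -2.50 ± 0.21 and the E2F target MYBL2 by -1.99 ± 0.13. CCND2 was the member not called (-0.20). Cell cycle inhibitors moved the other way. Of 8 CDK inhibitors and pocket proteins 5 were higher, led by CDKN1C, the inhibitor p57, at 8.59 and 8.68 in cells given both drugs, against 6.54 and 7.23 in vehicle cells (1.75 ± 0.12, adjusted p = 5.2e-07). CDKN2B, the inhibitor p15, differed by 1.54 ± 0.11, CDKN1A, the inhibitor p21, by 1.28 ± 0.11 and RBL2, the pocket protein of quiescent cells, by 1.14 ± 0.078. The pocket protein genes RBL1 (-1.43 ± 0.11) and RB1 (-0.68 ± 0.10) were the 2 called lower, and RBL1 is itself a known E2F target.

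The E2F motif TTTGGCGC stood in 5 of the 25 RefSeq promoters of 20 replication genes, against 0.652% of all promoters, and its variant TTTCCCGC in 8 of the 25, against 1.63%. The CHR motif TTTGAA, which the DREAM complex reads in late cell cycle genes, stood in 15 of the 22 promoters of 20 mitosis genes, against 15.2% of all promoters. Both strands were searched. The promoters of the replication and mitosis genes with the motif and the largest fall are shown with the motif in capitals, CDC6 (TTTGGCGC) at chr17:40287629-40287928 (plus strand) and MAD2L1 (TTTGAA) at chr4:120066799-120067098 (minus strand), both of GRCh38.p14.
CDC6: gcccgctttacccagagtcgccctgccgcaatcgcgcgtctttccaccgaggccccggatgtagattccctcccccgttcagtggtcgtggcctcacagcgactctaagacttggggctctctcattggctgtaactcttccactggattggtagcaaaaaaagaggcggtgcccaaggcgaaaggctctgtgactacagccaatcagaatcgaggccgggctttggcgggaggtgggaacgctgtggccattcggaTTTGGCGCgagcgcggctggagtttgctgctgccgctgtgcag
MAD2L1: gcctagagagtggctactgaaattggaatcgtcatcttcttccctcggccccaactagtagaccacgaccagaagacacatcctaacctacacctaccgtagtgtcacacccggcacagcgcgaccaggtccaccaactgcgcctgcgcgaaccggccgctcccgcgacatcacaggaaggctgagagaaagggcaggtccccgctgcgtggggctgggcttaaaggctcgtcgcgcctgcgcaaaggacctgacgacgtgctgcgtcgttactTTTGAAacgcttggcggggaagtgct

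**Figure D3:**
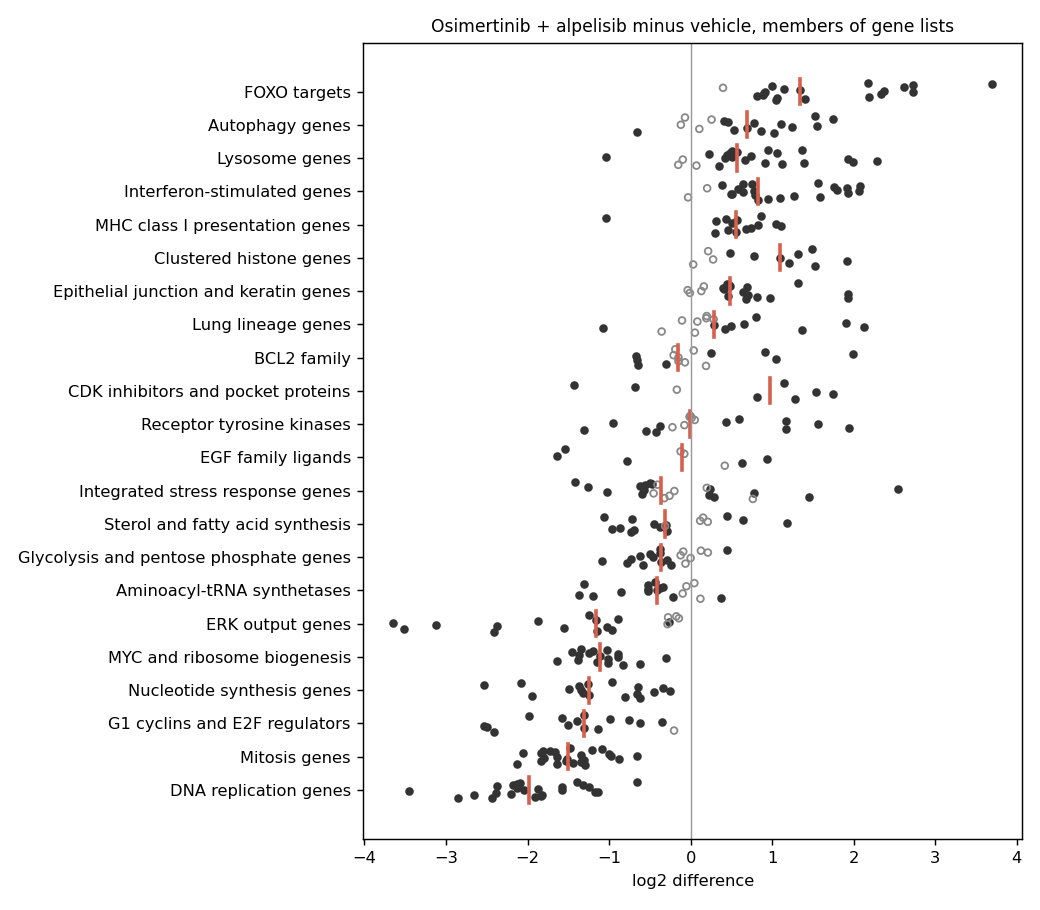
Log2 difference, combination minus vehicle, of each measured member of 22 gene lists, with filled points for genes called at an adjusted p below 0.05, open points for the others and a bar at the list's median. FOXO targets lie to the right of 0, and replication, mitosis, G1, nucleotide, ribosome biogenesis and ERK output genes to the left.

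Genes that build ribosomes fell together with MYC, the transcription factor that drives many of them. All 17 measured members of the list, MYC among them, were lower, with a median of -1.11. NOP16, a nucleolar assembly factor, lay at 8.46 and 8.97 in cells given both drugs, against 10.44 and 10.26 in vehicle cells (-1.63 ± 0.13, adjusted p = 1.6e-06). RRP9, a component of the small-subunit processome, lay at 6.61 and 6.80 in cells given both drugs, against 8.23 and 8.09 in vehicle cells (-1.46 ± 0.097, adjusted p = 4.9e-07). POLR1B, a subunit of RNA polymerase I, differed by -1.37 ± 0.087, and the rRNA methyltransferase NOP2 by -1.38 ± 0.12. MYC lay at 10.16 and 10.90 in cells given both drugs, against 10.88 and 11.41 in vehicle cells (-0.62 ± 0.067, adjusted p = 1.5e-05), a difference not called without the L-histidinol term (adjusted p = 0.19). MYC was lower with both drugs within each pair and its levels overlapped across the pairs, while those of NOP16 and RRP9 did not overlap. The E-box CACGTG, a palindrome bound by MYC and other helix-loop-helix factors, stood in 5 of the 14 promoters of 12 of these genes, against 7.26% of all promoters. The RRP9 promoter at chr3:51941855-51942154 (minus strand) of GRCh38.p14 is shown because RRP9 fell most among the members with the motif, in capitals.
RRP9: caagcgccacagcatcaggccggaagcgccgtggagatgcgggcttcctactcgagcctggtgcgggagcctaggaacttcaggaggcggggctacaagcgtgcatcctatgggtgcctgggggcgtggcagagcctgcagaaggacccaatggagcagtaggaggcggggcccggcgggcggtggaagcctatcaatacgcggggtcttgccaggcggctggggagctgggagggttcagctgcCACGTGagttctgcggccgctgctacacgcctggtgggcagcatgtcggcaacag

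Polyamine enzymes moved in both directions. Of 9 members 6 were lower and 2 higher, beside 19.2% of all genes called lower and 21.4% higher. Ornithine decarboxylase, ODC1, the entry enzyme and a known MYC target, lay at 10.23 and 10.73 in cells given both drugs, against 12.09 and 12.22 in vehicle cells (-1.67 ± 0.084, adjusted p = 8.6e-08). Spermidine synthase, SRM, differed by -1.68 ± 0.072 and the decarboxylase AMD1 by -1.02 ± 0.073. SAT1, which starts polyamine breakdown, rose by 0.78 ± 0.095. OAZ2 (0.40 ± 0.076), an antizyme that inhibits ornithine decarboxylase, was the other member called higher.

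Lysosome and autophagy genes rose. Of 23 lysosome genes 19 were higher and 1 lower, with a median of 0.56. Cathepsin H, CTSH, a lysosomal protease, lay at 11.05 and 10.50 in cells given both drugs, against 8.64 and 8.33 in vehicle cells (2.29 ± 0.08, adjusted p = 1.1e-08). Cathepsin D, CTSD, lay at 9.85 and 9.76 in cells given both drugs, against 8.23 and 8.59 in vehicle cells (1.39 ± 0.097, adjusted p = 6.5e-07). Cathepsin F, CTSF, differed by 1.99 ± 0.072 and the tripeptidyl peptidase TPP1 by 1.37 ± 0.079. The member called lower was GLA, alpha-galactosidase (-1.04 ± 0.11). Both combination arrays were above both vehicle arrays for these 4 proteases. Leaving out probe sets ending _x_at or _s_at, whose names mark possible cross-hybridization, removed genes from the list and gave 12 higher.

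Of 17 autophagy genes 12 were higher and 1 lower, with a median of 0.69. ULK1, the kinase that starts autophagosome formation, lay at 7.91 and 8.16 in cells given both drugs, against 6.11 and 6.47 in vehicle cells (1.74 ± 0.086, adjusted p = 8.0e-08). GABARAPL1, a ubiquitin-like protein of the autophagosome membrane, lay at 6.76 and 6.78 in cells given both drugs, against 5.07 and 5.38 in vehicle cells (1.55 ± 0.11, adjusted p = 5.8e-07). WIPI1, a reader of autophagosomal phosphoinositides, differed by 1.53 ± 0.13 and GABARAP by 1.24 ± 0.056. The member called lower was ATG16L1 (-0.66 ± 0.099), part of the conjugation machinery. The CLEAR motif TCACGTGA, bound by TFEB and TFE3, contains the E-box letters and stood in 5 of the 16 promoters of 15 lysosome genes, against 0.980% of all promoters. The CTSA promoter at chr20:45891085-45891384 (plus strand) of GRCh38.p14, of the carrier of the motif with the largest rise (1.12), is shown with it in capitals.
CTSA: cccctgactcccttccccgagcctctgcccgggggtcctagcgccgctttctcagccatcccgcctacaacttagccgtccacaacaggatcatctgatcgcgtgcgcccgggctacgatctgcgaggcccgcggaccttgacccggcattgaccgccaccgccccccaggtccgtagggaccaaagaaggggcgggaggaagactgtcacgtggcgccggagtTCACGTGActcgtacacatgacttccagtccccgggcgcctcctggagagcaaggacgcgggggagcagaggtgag

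Interferon-stimulated genes and the class I antigen presentation machinery were higher with both drugs. Of 23 interferon-stimulated genes 21 were higher and 0 lower, with a median of 0.83. The antiviral synthetase OAS2 lay at 7.75 and 7.75 in cells given both drugs, against 5.19 and 6.16 in vehicle cells (2.08 ± 0.19, adjusted p = 4.1e-06). The transcription factor IRF7 lay at 9.76 and 9.74 in cells given both drugs, against 7.28 and 8.09 in vehicle cells (2.07 ± 0.14, adjusted p = 5.8e-07), and IRF9, the DNA-binding part of the ISGF3 complex, differed by 1.80 ± 0.13. IFITM1, a membrane protein that blocks virus entry, lay at 11.58 and 11.63 in cells given both drugs, against 9.35 and 10.02 in vehicle cells (1.92 ± 0.11, adjusted p = 1.9e-07). Vehicle and combination arrays did not overlap in these genes, which were named for their large differences. The 2 members not called were IFI44 (-0.032) and ISG20 (0.20). The core of the interferon-stimulated response element, TTTC repeated after a gap of any 2 bases, stood in 18 of the 26 promoters of 19 members, against 3.57% of all promoters, with either strand searched. The IFITM1 promoter at chr11:313790-314089 (plus strand) of GRCh38.p14 is shown because IFITM1 rose most among the members with the element, which stands in capitals and reads TTTC on the opposite strand.
IFITM1: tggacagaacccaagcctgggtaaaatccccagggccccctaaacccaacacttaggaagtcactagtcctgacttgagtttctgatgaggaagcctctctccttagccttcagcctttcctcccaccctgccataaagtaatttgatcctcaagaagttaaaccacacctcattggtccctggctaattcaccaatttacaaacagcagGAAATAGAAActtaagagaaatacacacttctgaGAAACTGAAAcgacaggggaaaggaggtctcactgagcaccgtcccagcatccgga

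Of 14 genes of class I presentation 13 were higher and 1 lower. NLRC5, the transactivator of class I genes, lay at 7.82 and 8.01 in cells given both drugs, against 6.56 and 7.18 in vehicle cells (1.05 ± 0.12, adjusted p = 3.2e-05). The chaperone TAPBP, which edits peptide loading, lay at 9.47 and 9.34 in cells given both drugs, against 8.49 and 8.60 in vehicle cells (0.86 ± 0.075, adjusted p = 3.1e-06). HLA-E and HLA-F differed by 1.11 ± 0.06 and 0.82 ± 0.081, on probe sets that may also read other class I genes. TAP2, a subunit of the peptide transporter, was the member that fell, at 7.70 and 7.90 in cells given both drugs, against 8.93 and 8.74 in vehicle cells (-1.04 ± 0.099, adjusted p = 6.0e-06). The ligand CD274, known as PD-L1, fell as well and lay at 7.49 and 7.40 in cells given both drugs, against 8.22 and 8.56 in vehicle cells (-0.94 ± 0.15, adjusted p = 0.0003).

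Among 17 cytokine and chemokine genes 5 were higher (3 with plain probe sets preferred) and 3 lower. The counts lie near the 21.4% of all genes called higher and the 19.2% called lower. IL11 lay at 7.27 and 7.34 in cells given both drugs, against 9.37 and 8.99 in vehicle cells (-1.87 ± 0.10, adjusted p = 1.6e-07), and IL6 lay at 7.66 and 9.07 in cells given both drugs, against 6.71 and 6.84 in vehicle cells (1.59 ± 0.21, adjusted p = 8.2e-05). These cytokines of 1 family thus moved in opposite directions. The inhibitors of NF-kappaB signalling TNFAIP3 and NFKBIA differed by 0.93 ± 0.15 and 0.87 ± 0.082. On a plain, dimmer probe set NFKBIA differed by 0.021 (adjusted p = 0.94), and CXCL5 (-1.30 ± 0.13) differed by -0.11 (adjusted p = 0.64).

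The BCL2 family had 4 genes higher and 4 lower of 15, near the 21.4% of all genes called higher and the 19.2% called lower. BMF, a BH3-only protein that promotes cell death, lay at 6.998 and 6.77 in cells given both drugs, against 4.95 and 4.84 in vehicle cells (1.99 ± 0.11, adjusted p = 1.4e-07). BCL2L11, the BH3-only protein BIM, lay at 8.69 and 8.93 in cells given both drugs, against 7.57 and 7.95 in vehicle cells (1.05 ± 0.075, adjusted p = 7.4e-07), and HRK, another of this class, differed by 0.91 ± 0.11. All 3 were higher on both combination arrays than on either vehicle array. BCL2L1, which encodes the survival protein BCL-XL, differed by -0.66 ± 0.098, and the BH3-only gene BID by -0.67 ± 0.084. With the mean of probe sets 7 members were called lower, and without the L-histidinol term 2 were called higher. Of 14 p53 targets 7 were higher and 2 lower, beside the same shares of all genes, and the count lower lies near its share. The median of the list was only 0.16, and its lowest difference was -0.41. Among the members called higher were PHLDA3, an inhibitor of AKT, at 1.34 ± 0.08 and TP53I3 at 1.31 ± 0.077.

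Clustered histone genes, whose transcripts mostly lack poly(A) tails in dividing cells, gave 8 higher and 0 lower of 11, with a median of 1.09 (4 higher without the L-histidinol term). H2AC8 lay at 8.09 and 7.93 in cells given both drugs, against 6.14 and 6.06 in vehicle cells (1.91 ± 0.089, adjusted p = 4.7e-08). The linker histone H1-2 lay at 10.76 and 10.69 in cells given both drugs, against 9.06 and 9.33 in vehicle cells (1.53 ± 0.08, adjusted p = 1.2e-07), and H2BC5 differed by 1.32 ± 0.12. Neither H2AC8 nor H1-2 overlapped between the treatments. Near-identical histone copies may share probes, so the members are not certain.

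Metabolic gene lists fell in part. Of 19 genes of glycolysis and the pentose phosphate route 12 were lower and 1 higher (7 lower without the L-histidinol term). Hexokinase 2, HK2, lay at 7.67 and 8.11 in cells given both drugs, against 8.89 and 9.06 in vehicle cells (-1.08 ± 0.082, adjusted p = 1.1e-06). Glucose phosphate isomerase, GPI, differed by -0.78 ± 0.075 and the regulatory enzyme PFKFB3 by -0.73 ± 0.095, and the transketolase gene TKT was the member called higher (0.45 ± 0.058). Of 17 genes of sterol and fatty acid synthesis 10 were lower and 3 higher (5 lower without the L-histidinol term). SREBF1, the transcription factor of fatty acid synthesis, lay at 5.54 and 5.60 in cells given both drugs, against 6.44 and 6.84 in vehicle cells (-1.07 ± 0.12, adjusted p = 1.6e-05), and the elongase ELOVL6 differed by -0.96 ± 0.082. Lanosterol synthase, LSS, rose by 1.18 ± 0.096. Of 20 genes of mitochondrial respiration 12 were lower and 2 higher (7 lower without the L-histidinol term), mostly by small steps, as in citrate synthase, CS (-0.64 ± 0.068), and the complex I subunit NDUFA9 (-0.38 ± 0.07).

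Aminoacyl-tRNA synthetases, which charge tRNAs with amino acids, were lower in 12 and higher in 1 of 17 cases (6 lower without the L-histidinol term), with a median of -0.42. The valine enzyme VARS1 lay at 7.74 and 7.82 in cells given both drugs, against 9.004 and 9.17 in vehicle cells (-1.31 ± 0.079, adjusted p = 2.6e-07). The phenylalanine subunit FARSA lay at 7.93 and 8.03 in cells given both drugs, against 9.40 and 8.96 in vehicle cells (-1.20 ± 0.11, adjusted p = 4.9e-06). HARS1, the histidine enzyme that L-histidinol occupies, lay at 8.86 and 8.91 in cells given both drugs, against 9.79 and 9.68 in vehicle cells (-0.85 ± 0.071, adjusted p = 2.1e-06). In all 3 the vehicle levels were above the combination levels. The partner subunit FARSB differed by -1.37 ± 0.096, and by -0.031 (adjusted p = 0.91) on a plain, dimmer probe set. Of 12 amino acid transporters 6 were lower and 2 higher (1 lower without the L-histidinol term), among them the cationic carrier SLC7A1 (-0.80 ± 0.083), the glutamine carrier SLC1A5 (-0.60 ± 0.08) and the leucine carrier SLC7A5 (-0.54 ± 0.06).

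Genes of the integrated stress response, the program of the factor ATF4, gave 6 higher and 9 lower among the 22 measured. Over all genes 21.4% were called higher and 19.2% lower. PSAT1, a serine synthesis enzyme, lay at 8.82 and 10.62 in cells given both drugs, against 10.19 and 11.76 in vehicle cells (-1.25 ± 0.065, adjusted p = 1.1e-07), while NUPR1, a stress-induced nuclear protein, lay at 9.69 and 10.70 in cells given both drugs, against 6.34 and 8.97 in vehicle cells (2.54 ± 0.25, adjusted p = 8.4e-06). PSAT1 overlapped between the treatments across the pairs and NUPR1 did not. ATF4 differed by 0.29 ± 0.089. The count of higher genes was 3 without the vehicle array that lacked L-histidinol, 3 without the combination array that lacked it, 3 with no intensity trend and 2 without the L-histidinol term, which left 1 lower. ATF4 was not called without the first of these arrays (0.14) or without the second (0.10). ATF3 (1.46 ± 0.08) differed by 0.92 on another probe set and by -0.13 (adjusted p = 0.42) on a plain, dimmer one.

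Of 16 lung lineage genes 8 were higher, 1 was lower and 7 were not called, with a median difference of 0.28, and 4 were called higher when dim genes with a mean log2 intensity under 5 were left out. NKX2-1, whose levels are given above, differed by 1.90 ± 0.12 (adjusted p = 3.3e-07), and the C/EBP factor CEBPD by 1.37 ± 0.08. FOXA2, a forkhead factor of the airway, fell by 1.07 on the log2 scale. HOPX, a marker of alveolar type 1 cells, differed by 2.12 ± 0.24, and by -0.13 (adjusted p = 0.56) on a plain, dimmer probe set. Without the L-histidinol term 5 lung lineage genes were called higher. Of 19 genes of epithelial junctions and keratins 15 were higher and 0 lower, with a median of 0.48. The tight junction protein CLDN1 lay at 6.96 and 7.41 in cells given both drugs, against 5.06 and 5.45 in vehicle cells (1.93 ± 0.16, adjusted p = 1.7e-06). ELF3, an epithelial ETS factor, lay at 9.02 and 8.44 in cells given both drugs, against 6.999 and 6.60 in vehicle cells (1.93 ± 0.10, adjusted p = 1.1e-07), and CLDN3 and CLDN4 differed by 0.97 ± 0.10 and 0.81 ± 0.072.

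Set against the single drugs, more genes were called in the combination against alpelisib than against osimertinib. Against alpelisib alone 2897 genes were higher (14.6%) and 2838 lower (14.4%), and against osimertinib alone 1178 were higher (5.96%) and 1465 lower (7.41%). All of these comparisons share the 2 combination arrays. The counts against osimertinib rested on single arrays: 719 genes were called without the osimertinib array that lacked L-histidinol, 508 without the osimertinib array that had it and 1051 without the combination array that lacked it. With no intensity trend 1017 were called, with the mean of probe sets 1646, and without the L-histidinol term 23. Against alpelisib 2968 and 3692 genes were called without the alpelisib array that lacked or had L-histidinol, and 2196 without the L-histidinol term.

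Of 18 ERK output genes 1 was lower and 4 higher with the combination than with osimertinib alone, beside 7.41% of all genes lower and 5.96% higher, and the median difference of the list was 0.20. Against alpelisib alone 15 were lower and 0 higher, with a median difference of -1.20. DUSP6 lay at 4.31 and 4.62 in cells given both drugs and at 3.98 and 4.003 in cells given osimertinib alone (0.47 ± 0.18, adjusted p = 0.12). DUSP6 was called higher than with osimertinib alone without the vehicle array that lacked L-histidinol (adjusted p = 0.026), without the vehicle array that had it (adjusted p = 0.028) and with the 4 arrays of that comparison alone (adjusted p = 0.032). FOSL1 was the member called lower still, at 7.02 and 6.59 in cells given both drugs, against 7.91 and 7.21 in cells given osimertinib alone (-0.75 ± 0.085, adjusted p = 0.00052). CCND1 differed by -0.57 from osimertinib alone and was not called. In other settings it was called lower, as with all 2-way terms (adjusted p = 0.0023) and with the 4 arrays of that comparison alone (adjusted p = 0.00048). The same held with median centring (-0.59, adjusted p = 0.043). The 4 higher members were IER3 (0.55), SPRY1 (0.72), DUSP5 (0.44) and DUSP4 (0.58), named after their values were seen, and 2 of the list were called higher without the osimertinib array that had L-histidinol and 0 without the L-histidinol term.

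Most FOXO targets were higher with both drugs than with either drug alone. Against osimertinib alone 16 of 19 were higher, beside 5.96% of all genes, and against alpelisib alone 18, beside 14.6%. YPEL3 lay at 9.48 and 9.39 in cells given both drugs, against 7.98 and 7.88 in cells given osimertinib alone (1.504 ± 0.082, adjusted p = 1.8e-05) and 7.85 and 7.87 in cells given alpelisib alone (1.57 ± 0.082, adjusted p = 6.7e-07). IRS2 differed by 1.37 ± 0.12 (adjusted p = 0.00016) from osimertinib alone and ERBB3 by 0.77 ± 0.072 (adjusted p = 0.00024). BMF differed by 0.80 ± 0.11 (adjusted p = 0.0013) and TP53INP1 by 1.05 ± 0.12 (adjusted p = 0.00052). GBP2, AQP3, CCN5, ATG9B, CHI3L1 and LBH were also higher than with osimertinib alone, by 1.10, 1.31, 0.56, 1.63, 1.15 and 1.11. The calls of these genes against osimertinib held in every alternative run, apart from the model without the L-histidinol term. CLIC3 (0.47 ± 0.13, adjusted p = 0.032) and TMT1A (0.67 ± 0.19, adjusted p = 0.042) were called higher than with osimertinib alone as well. Both lost that call with the mean of probe sets, with no intensity trend and when either osimertinib array was left out. The count of FOXO targets against osimertinib was 10 without the osimertinib array that lacked L-histidinol, 7 without the one that had it, 8 without the combination array that lacked it, 9 with no intensity trend and 2 without the L-histidinol term.

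Most replication, mitosis and ribosome genes were lower with both drugs than with either drug alone. Against osimertinib alone 21 of 24 replication genes and 22 of 24 mitosis genes were lower, beside 7.41% of all genes. So were 14 of 17 members of the ribosome biogenesis list, which includes MYC. Against alpelisib alone all 24, all 24 and all 17 were lower, beside 14.4% of all genes. PCNA, the replication clamp, lay at 9.05 and 9.04 in cells given both drugs, against 10.52 and 9.82 in cells given osimertinib alone (-1.12 ± 0.12, adjusted p = 0.00049) and 11.22 and 10.63 in cells given alpelisib alone (-1.88 ± 0.12, adjusted p = 2.9e-06). MCM10 differed by -1.43 ± 0.19 (adjusted p = 0.0012) from osimertinib alone. CDC6 differed by -1.06 ± 0.18 (adjusted p = 0.0033) and was not called without the osimertinib array that lacked L-histidinol (-0.76). Without that array 4 replication and 3 ribosome genes were called lower than with osimertinib alone, and without the osimertinib array that had L-histidinol 13 replication, 2 mitosis and 0 ribosome genes. Without the combination array that lacked L-histidinol 13 mitosis and 3 ribosome genes were called lower. With no intensity trend the counts were 10, 13 and 4, and with the mean of probe sets 14 mitosis and 7 ribosome genes. Without the L-histidinol term none of the 3 lists had a member called lower.

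Beside 5.96% of all genes called higher and 7.41% lower than with osimertinib alone, 14 of 23 lysosome and 10 of 23 interferon-stimulated genes were called higher. Without the osimertinib array that lacked L-histidinol these counts were 4 and 1, without the one that had it 4 and 2, without the combination array that lacked it 7 and 1, and with no intensity trend 5 and 1. Without the L-histidinol term both counts were 0, whereas the interferon count was 18 with the 4 arrays of that comparison alone, 17 with all 2-way terms and 6 with the mean of probe sets. Against alpelisib alone 21 interferon-stimulated genes were higher, beside 14.6% of all genes. The nucleotide list had 12 of 17 genes lower than with osimertinib alone, and 5, 7 and 6 without these 3 arrays in the same order. DDIT4 lay at 8.70 and 10.01 in cells given both drugs, against 9.51 and 11.02 in cells given osimertinib alone (-0.91 ± 0.09, adjusted p = 0.00035).

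**Figure D4:**
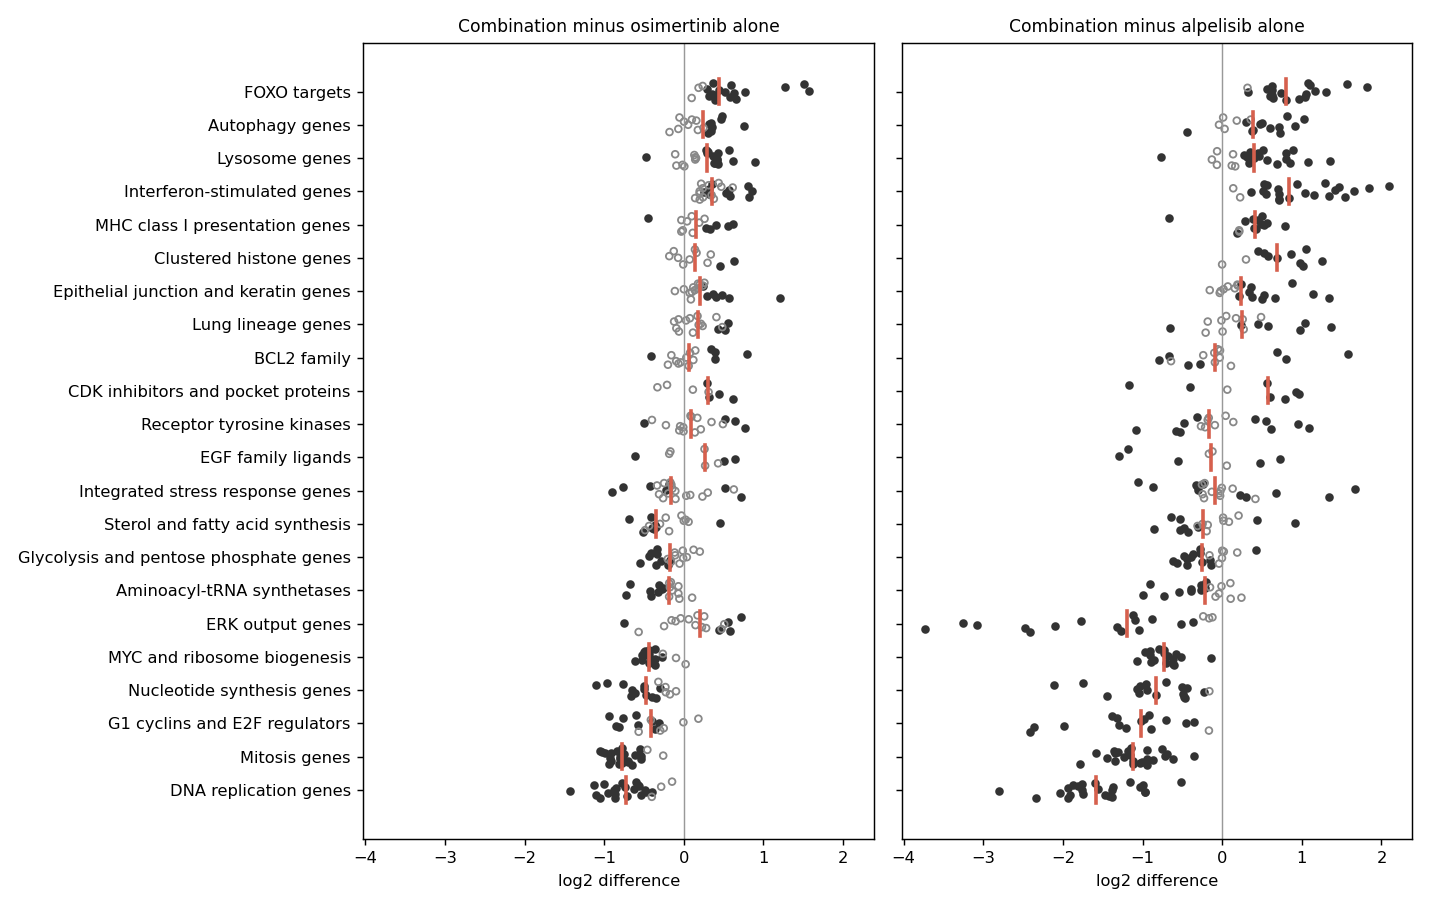
Log2 difference of each measured member of 22 gene lists, for the combination minus osimertinib alone (left) and minus alpelisib alone (right), with filled points for genes called at an adjusted p below 0.05 and a bar at the median. ERK output genes centre near 0 on the left and lie far below 0 on the right, while FOXO targets lie above 0 and replication and mitosis genes below 0 in both panels.

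The response to both drugs was set side by side in the pairs with and without L-histidinol. The difference between the pairs was called for 10 genes, 1 higher with L-histidinol (0.00506%) and 9 lower (0.0455%), while 2034 had an unadjusted p below 0.05. On simulated data this test found 5.5% of true differences of 1 log2 unit, so few calls do not show that the pairs were alike. With the prior spread estimated from the model that holds all 2-way terms, 1317 genes were called, 883 higher and 434 lower with L-histidinol. The model used here keeps the prior of the additive one. The vitamin D hydroxylase CYP24A1 rose more with L-histidinol, and lay at 9.75 and 9.55 in cells given both drugs, against 8.20 and 6.73 in vehicle cells. These calls depended on the settings, as 1 gene was called with 16 added to the intensity, 1 with dim genes left out and 0 with the mean of probe sets. The 5 named among the 9 whose response was lower with L-histidinol were ALDH1L2, NIBAN1, GDF15, NUPR1 and MX1. The stress protein NIBAN1 lay at 8.45 and 8.77 in cells given both drugs, against 6.84 and 9.02 in vehicle cells. In vehicle cells the array with L-histidinol held the higher NIBAN1 level, and with both drugs the levels with and without it lay close together. The median difference of the FOXO targets was 1.34 in the pair with and 1.42 in the pair without L-histidinol. Even so, 1 FOXO target was among the 9 genes whose response was called lower with L-histidinol. For replication genes it was -1.71 with and -2.25 without L-histidinol, and for mitosis genes -1.14 with and -1.83 without it.

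**Figure D5:**
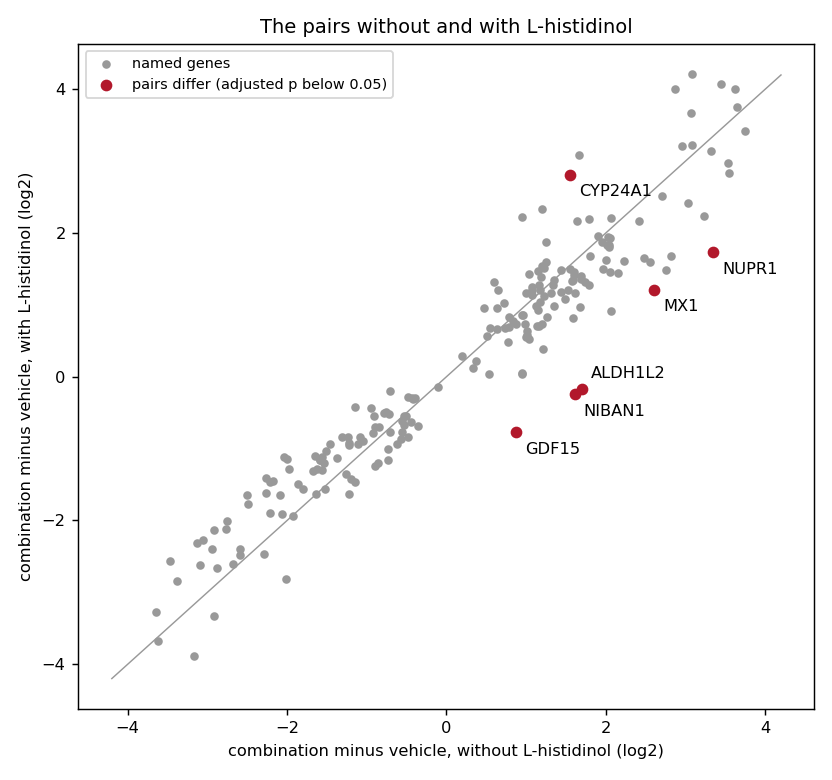
Log2 difference, combination minus vehicle, of the 203 named genes in the pair without L-histidinol (x axis) and in the pair with it (y axis), with the line of equal values. Red points mark the 6 named genes whose pairs differed at an adjusted p below 0.05, CYP24A1 above the line and the other 5 below it.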

How the data were processed

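The deposited values are linear probe set intensities, made by the authors with RMA in affy per the submitters' processing notes, with versions not given in the sources used here. Biotinylated cRNA was prepared from 100 ng total RNA, per the labels' protocols. The planned log2 scale was reached by taking log2 of the deposited intensity, whose quartiles lay at 7.47 to 7.66 and 101 to 106 on the 8 arrays. Of 54675 probe sets 62 are controls, 41091 carried 1 gene symbol, 1801 several and 11721 none in the platform annotation; several and none were not named. RefSeq held 41037 of the annotated probe sets and 0 symbols were updated. Each of 19775 genes was read by its probe set with the highest mean (9252 genes have 1), so other probe sets of a gene can disagree. limma 3.58.1 in R 4.3.3 fitted treatment plus L-histidinol status to all 8 arrays (3 residual and 8.08 prior degrees of freedom, with an intensity trend), with Benjamini-Hochberg adjustment over all genes and a threshold of 0.05. L-histidinol status, from the labels, pairs the arrays and is the block of the model. The difference between pairs came from a model with all 2-way terms (1 residual degree of freedom), with the additive prior held. No detection call was used. The scripts were tested on simulated data. The members of the 36 lists (622 entries, 571 measured) and all tests were chosen with earlier results of these data known. The genes named were the 12 largest rises and falls, up to 5 members of each list by absolute difference, a few regulators, the 6 largest each way against vehicle and both single drugs, and up to 5 each way for the difference between pairs, 203 in all; others are marked where they stand alone. Promoters of 300 bases came from RefSeq (GRCh38.p14). Alternatives covered centring, quantile normalization, 16 added to the intensity, a mean log2 of at least 5, other choices of probe set, other models and leaving out each array.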

Additional observations from a re-analysis of the deposited data

Results flagged for a closer look

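For 6 of the named genes the response to both drugs differed between the pair with and the pair without L-histidinol by limma's test of that difference itself, with 1 array per condition. CYP24A1 changed by 2.81 in the pair with and 1.55 in the pair without L-histidinol, and the difference of the pairs, with minus without L-histidinol, was 1.26 ± 0.16 (adjusted p = 0.042). It was the gene among them with the larger rise under L-histidinol. ALDH1L2, a mitochondrial folate enzyme and a target of ATF4, changed by -0.17 in the pair with and 1.70 in the pair without L-histidinol, and the pairs differed by -1.87 ± 0.21 (adjusted p = 0.035). NIBAN1 changed by -0.24 in the pair with and 1.61 in the pair without L-histidinol, and the pairs differed by -1.85 ± 0.16 (adjusted p = 0.015). GDF15, a stress cytokine, changed by -0.77 in the pair with and 0.87 in the pair without L-histidinol, and the pairs differed by -1.65 ± 0.17 (adjusted p = 0.027). NUPR1 rose in both pairs, by 1.74 in the pair with and 3.35 in the pair without L-histidinol, and the pairs differed by -1.61 ± 0.15 (adjusted p = 0.019). MX1, an interferon-induced GTPase, also rose in both pairs, by 1.21 in the pair with and 2.61 in the pair without L-histidinol, and the pairs differed by -1.40 ± 0.16 (adjusted p = 0.035). The calls rested on the processing. Only NIBAN1 of the 6 was called with 16 added to the intensity (adjusted p = 0.042 to 0.15 over the 6) and with a mean log2 of at least 5 (0.046 to 0.078), and none was called with the mean of probe sets (0.16 to 0.40). CYP24A1 was not called with quantile normalization (adjusted p = 0.053), and GDF15 differed by 0.11 on a plain, dimmer probe set (adjusted p = 0.93). In ALDH1L2, NIBAN1 and GDF15 the sign turned between the pairs. Each pair sets 1 array against 1, and whether these genes truly fell in the pair with L-histidinol was not tested. The levels behind ALDH1L2 were 5.63 and 6.80 in cells given both drugs, against 3.93 and 6.97 in vehicle cells, and those behind GDF15 were 7.95 and 8.63 in cells given both drugs, against 7.07 and 9.40 in vehicle cells. Without L-histidinol both genes were higher in cells given both drugs, and with it both were lower.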

How the results depend on the processing

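Of the 203 named genes, 42 changed their call or sign against vehicle in at least 1 alternative, 29 of them apart from the model without an L-histidinol term, and 12 when 1 array was left out. Centring each array on its median gave a median of all genes of -0.046, beside -0.001 without it, and 3813 genes higher and 4236 lower. With 1 array left out, 6660 to 7694 genes were called against vehicle, 508 to 3271 against osimertinib and 2968 to 6282 against alpelisib. Testing all probe sets gave 14537, 4273 and 9698 calls against vehicle, osimertinib and alpelisib, by construction, since more features were tested. Without the L-histidinol term the calls were 5269, 23 and 2196. Against osimertinib 1646 were called with the mean of probe sets and 1017 with no intensity trend, and the cause was not tested. The difference between the pairs gave 1 call with 16 added to the intensity, 1 with a mean log2 of at least 5, 0 with the mean of probe sets, 6 without probe sets ending _x_at or _s_at and 1317 with its own prior. Other probe sets, all dimmer, turned the sign of TMT1A (-0.025), DSCC1 (0.075), GINS2 (0.066), PPAT (0.012), SLC1A4 (-0.045), HOPX (-0.13), COL1A2 (-0.10), ATF3 (-0.13) and PPIA (0.15, and 0.012 with the mean of probe sets) against vehicle, of CDCA7 (0.027) against osimertinib, of TMT1A (-0.0030) and DSCC1 (0.19) against alpelisib, and of GDF15 (0.11) in the difference between the pairs. On plain probe sets calls against vehicle were also lost for AKR1C1 (0.14), IDH3A (-0.20), ENO1 (-0.03), NBR1 (0.30) and SMOX (-0.22). Another probe set, brighter than these, kept the direction of the one used against vehicle in PPAT (-1.43), SLC1A4 (0.60), COL1A2 (1.95) and ATF3 (0.92). The same held for IDH3A (-1.33), NBR1 (0.81), ENO1 (-0.56), SMOX (-0.55), AKR1C1 (0.42) and TMT1A (0.38). DSCC1, GINS2, HOPX and PPIA had no such probe set. Probe sets ending _x_at or _s_at left out removed list members, leaving 3 receptors, 4 histones, 4 lung lineage genes, 4 NRF2 targets, 3 surface antigens, 2 cytokines and 2 markers of other cells higher, and 7 glycolysis genes, 5 sterol genes, 5 stress response genes, 3 YAP targets and 6 synthetases lower. Leaving out an array from the difference between pairs leaves no residual degrees of freedom, so it was not run. With 1 array per condition, no spread within a condition could be measured, and dim genes such as EGF, TNFSF10 in vehicle cells, LUM and CDH5 lie near the background, where differences are compressed.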

Other observations

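Counts of other gene groups, cells given both drugs against vehicle cells, stand beside 21.4% of all genes called higher and 19.2% lower. The counts of the squamous genes, and of the surface antigens and cilium genes called lower, lie near these shares. Of 14 tumour surface antigens 5 were higher and 3 lower. The mucin MUC1 lay at 11.26 and 11.12 in cells given both drugs, against 9.19 and 8.91 in vehicle cells (limma, 2.13 ± 0.066, adjusted p = 9.1e-09), and the checkpoint ligand VTCN1, known as B7-H4, lay at 6.74 and 4.98 in cells given both drugs, against 3.92 and 3.29 in vehicle cells (2.25 ± 0.22, adjusted p = 7.7e-06). NECTIN4 differed by 1.29 ± 0.098 and MUC16 by 1.51 ± 0.14. Of 13 mesenchymal genes 7 were higher and 2 lower. Fibronectin, FN1, lay at 11.55 and 11.60 in cells given both drugs, against 10.38 and 10.33 in vehicle cells (1.22 ± 0.061, adjusted p = 8.6e-08), and the collagen COL1A1, counted among the markers of other cells, lay at 10.10 and 9.62 in cells given both drugs, against 8.55 and 8.12 in vehicle cells (1.53 ± 0.091, adjusted p = 2.2e-07). Epithelial and mesenchymal genes were thus called higher on the same arrays.

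Of 16 targets of YAP and TEAD, the output factors of the Hippo pathway, 10 were higher and 5 lower. The ectonucleotidase NT5E lay at 8.38 and 8.35 in cells given both drugs, against 10.31 and 10.28 in vehicle cells (-1.93 ± 0.078, adjusted p = 2.3e-08), while the muscle and injury gene ANKRD1 lay at 6.34 and 5.82 in cells given both drugs, against 4.76 and 4.49 in vehicle cells (1.45 ± 0.14, adjusted p = 6.2e-06). Of 13 NRF2 targets 8 were higher and 2 lower, led by the aldo-keto reductases AKR1B10 (1.99 ± 0.12) and AKR1C3 (1.82 ± 0.14), whose family members share sequence, and the glutathione synthesis gene GCLM differed by -0.77 ± 0.069. Of 15 cilium genes 8 were higher and 3 lower, with BBS9 at 1.42 ± 0.11 and BBS1, another subunit of the ciliary cargo complex, at 1.04 ± 0.081. Of 12 squamous barrier genes 2 were higher and 3 lower, the serpins SERPINB4 (1.77 ± 0.20) and SERPINB3 (0.96 ± 0.15) against SPRR1B (-0.72 ± 0.14), SPRR3 (-0.69 ± 0.14) and KRT14 (-0.45 ± 0.15). KRT14 was not called without the vehicle array that lacked L-histidinol (-0.30) or without the combination array that lacked it (-0.26). Of 7 reference genes 2 were higher, B2M (0.29 ± 0.048) and GUSB (0.23 ± 0.073), and 3 lower, HPRT1, TBP (-0.37 ± 0.092) and PPIA (-0.12 ± 0.041). GUSB, TBP and PPIA were not called without the combination array that lacked L-histidinol. HPRT1, a purine salvage enzyme, lay at 10.50 and 10.56 in cells given both drugs, against 11.54 and 11.45 in vehicle cells (-0.97 ± 0.068, adjusted p = 6.4e-07), whereas GAPDH differed by -0.064 ± 0.04 and ACTB by 0.039 ± 0.044, and neither of these was called.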
